A study of Homo sapiens with 6 samples.

Results

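Chromatin accessibility was compared in SEM cells carrying an shRNA against NSD2 (labelled sh2) and SEM cells carrying a non-targeting shRNA (labelled NT). SEM is an established B-cell acute lymphoblastic leukemia line with a KMT2A-AFF1 fusion, labelled as bone marrow, and was grown in RPMI1640 medium with serum. The series concerns a mutant form of NSD2 in relapsed childhood leukemia, and the labels do not give the NSD2 genotype of SEM. The comparison rests on 2 of the 6 samples of the series, 1 for each shRNA, chosen by their titles, and on 4 of its 12 lists of ATAC-seq peaks. Each sample had 2 lists, read here as 2 libraries, and the labels do not say whether these came from separate cultures. The spread between them may thus be technical, only 1 shRNA was used, and the files hold no measurement of NSD2 RNA or protein to check the knockdown. Values of NT and sh2 are therefore set side by side without a test. With 2 lists against 2, an exact two-sided permutation test could not go below p = 0.333.

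NSD2 is a histone methyltransferase that adds dimethyl marks to lysine 36 of histone H3, a mark found along transcribed genes and in the sequence between them. The mark hinders the placing of methyl groups on lysine 27 of the same histone by Polycomb enzymes, which is tied to compact chromatin. In ATAC-seq, the Tn5 transposase cuts accessible DNA, and stretches with many cuts are called as peaks, most often at promoters and enhancers. A stretch without a peak is one in which none was called, which is not the same as closed chromatin. All positions are hg19, genes and sequences were not assigned to them, and base composition was not analysed here.

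On chromosomes 1 to 22, the NT libraries had 52301 and 53475 peaks and the sh2 libraries had 62120 and 60148. Both sh2 libraries lay above both NT libraries. Peaks covered 24.182 and 24.227 Mb with NT and 27.2 and 26.4 Mb with sh2. The median width of a peak went the other way, at 369 and 359 bp with NT and 347 and 345 bp with sh2. The authors' value for each peak, read here as a fold enrichment over the background of its own library, had medians of 6.29 and 6.25 with NT and 6.41 and 6.51 with sh2. Read depth is unknown. The background level that the fold values imply, a stand-in for relative depth, was 1.78 and 1.57 with NT and 1.93 and 1.85 with sh2, so that both sh2 libraries were also higher here. Its part in the number of peaks was not tested.

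When the 4 lists were merged (peaks sharing at least 1 bp), they formed 78012 regions, out of 126189 formed by all 12 lists. All 4 libraries had a peak at 36884 regions (47.3%), called shared regions below. A further 19460 regions (24.9%) had a peak in only 1 library. The regions with a peak in both of 2 libraries made up 70.4% of those with a peak in either for the NT pair and 71.6% for the sh2 pair. For the 4 pairs of an NT with an sh2 library this was 63.2% to 63.7%, below both same-sample pairs.

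**Figure D1:**
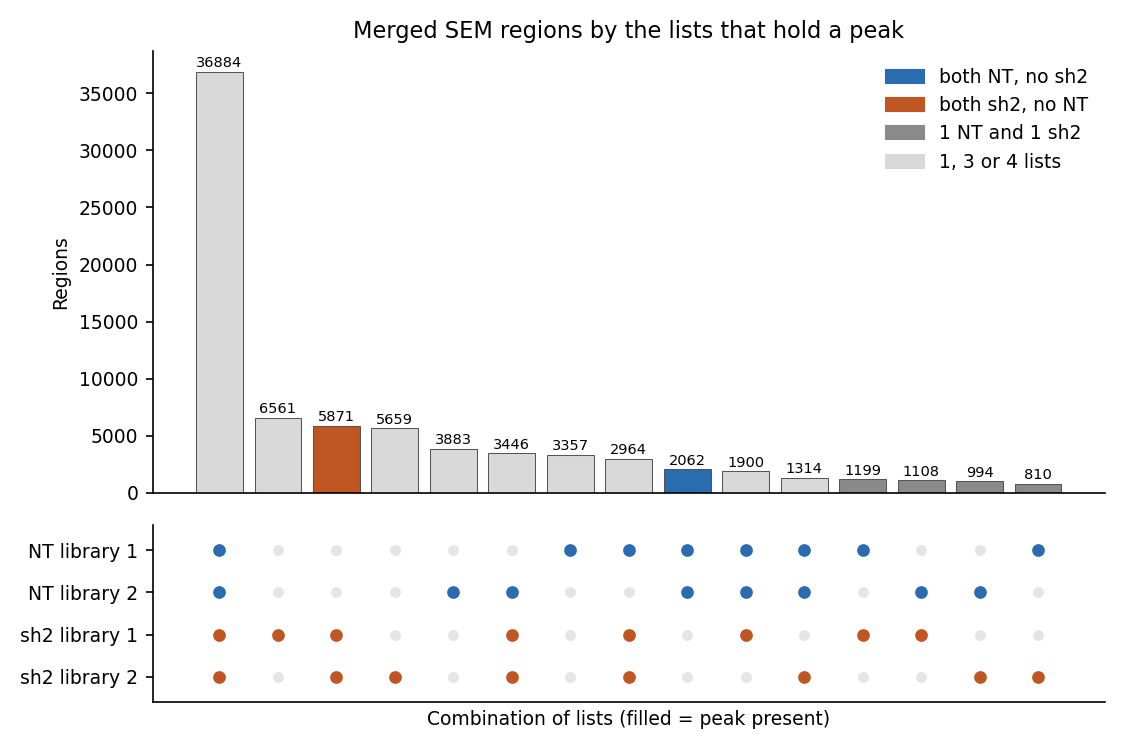
Number of merged SEM regions (vertical axis) for each combination of libraries with a peak, with filled dots below each bar for the libraries that had one. The bar for both sh2 and no NT library (5871) is above the bar for both NT and no sh2 library (2062), and the 4 bars with 1 NT and 1 sh2 library are the lowest, from 810 to 1199.

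More regions were called in both sh2 libraries and neither NT library than the reverse. The NT-only class held 2062 regions, 2.64% of all SEM regions, and the sh2-only class held 5871, or 7.53%. For comparison, the lists were also paired across the shRNAs. Each crossed pair has 1 NT and 1 sh2 library, so regions that differ between the samples are left out of it. The crossed classes thus show the spread between lists of a sample. They do not show how separate samples with the same shRNA would differ. In these crossed splits, 1199 regions (1.54%) had peaks in NT library 1 and sh2 library 1 alone, 994 (1.27%) in NT library 2 and sh2 library 2 alone, 810 (1.04%) in NT library 1 and sh2 library 2 alone, and 1108 (1.42%) in NT library 2 and sh2 library 1 alone. The sh2-only class was 4.90 times the largest crossed class and the NT-only class 1.72 times. Of the 7933 regions in either class, called changed regions here, 74.0% were sh2-only (exact 95% binomial interval 73.03 to 74.97, which covers counting error only). Regions with a peak in both libraries of 1 shRNA and in 1 of the other followed the same order, with 6410 for both sh2 and 1 NT library and 3214 for both NT and 1 sh2 library.

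The size of the sh2-only excess depended on how the lists were limited. With only peaks above the pooled median fold of 6.37 kept, 1029 regions were NT-only and 3895 sh2-only, a share of 79.1% (77.9 to 80.2). This limit lies above the medians of both NT lists (6.29 and 6.25) and below those of both sh2 lists (6.41 and 6.51). It thus keeps a larger part of the sh2 lists, which were also longer, and draws the classes apart. With every list cut to its 52301 peaks of highest fold, as many as the shortest list held, 3610 regions were NT-only and 4289 sh2-only, and the sh2-only share was 54.3% (53.2 to 55.4). Cut to 10000 peaks, the lists gave 967 and 1120 regions, a share of 53.7% (51.5 to 55.8). At 20000, 30000 and 40000 peaks the share was 53.6%, 52.4% and 52.0%. Cutting to 1 length removes more of the weak peaks from the longer sh2 lists, and thus draws the classes towards equal size. What part the list length had in the excess was not tested. At each of these lengths both classes outnumbered all crossed classes. At 10000 peaks the crossed classes held 210 to 253 regions and at 52301 peaks 839 to 990.

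With 1 library left out, a class needs fewer lists and grows. NT-only regions then numbered 3400 to 6069, and sh2-only regions 8903 to 12599. Leaving out NT library 1 gave 6069 and 8903, NT library 2 gave 5532 and 9364, sh2 library 1 gave 3991 and 11685, and sh2 library 2 gave 3400 and 12599. The sh2-only class was the larger one each time, with a share of 59.5% to 78.7%.

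Changed regions were mostly narrow and weak. NT-only regions had a median width of 324 bp (quartiles 276 and 401) and sh2-only regions 303 bp (265 and 366), against 602 bp (439 and 847) for shared regions and 287.5 to 292 bp for the crossed classes. Ranked by fold within their own lists, NT-only regions stood at a median percentile of 26.6 and sh2-only regions at 33.4, where 100 is the strongest peak of a list. The crossed classes stood at 21.6 to 24.2 and shared regions at 64.1. Width and fold are tied to whether a peak is called, so these values describe the classes and test nothing.

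The classes had different profiles of strength. Among the weakest decile of the peaks of NT library 1, 8.74% were in NT-only regions, and the share fell with every decile, to 0.0765% in the ninth and 0 of 5228 peaks in the strongest. In sh2 library 1 the share in sh2-only regions was 11.0% in the weakest decile, highest in the third at 16.9%, and 0.966% in the ninth. The second libraries had the same form, with 7.90% and 11.9% in the weakest decile and a highest sh2-only share of 17.2% in the fourth. In the strongest decile, 8 peaks of sh2 library 1 and 10 of sh2 library 2 were in sh2-only regions, and none of either NT library were in NT-only regions. Thus the strongest changed regions were sh2-only. In the same decile, 99.2% or more of the peaks of every library were in shared regions.

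**Figure D2:**
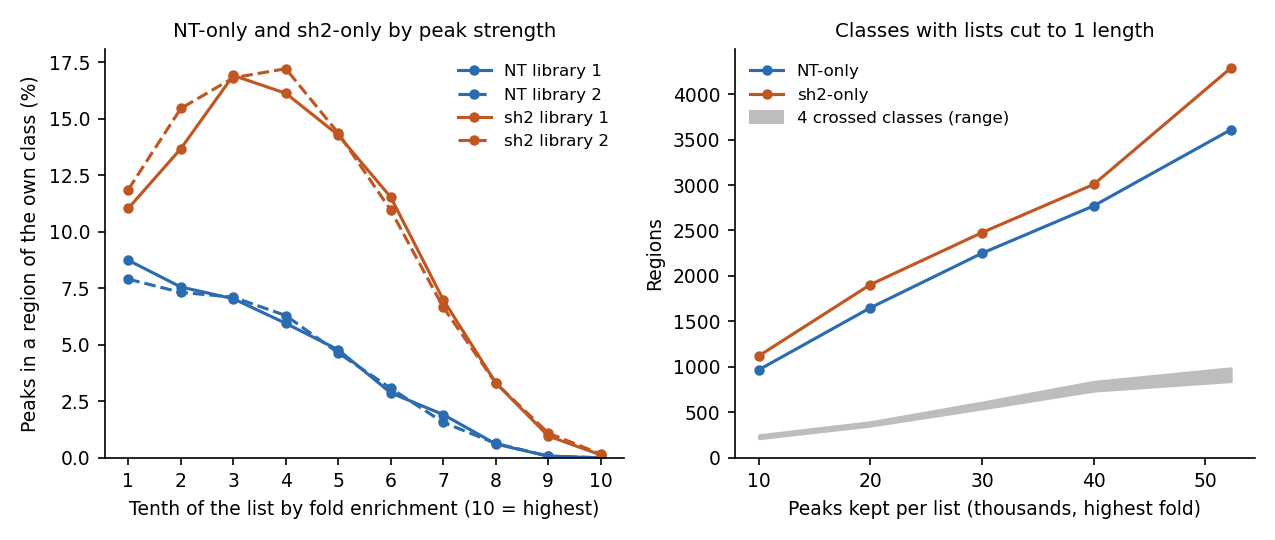
Left, share of the peaks of each library (percent) that lie in a region of that library's own class, by decile of the list ranked by fold enrichment. Right, number of NT-only and sh2-only regions with all 4 lists cut to the same number of peaks, beside the range of the 4 crossed classes. Both sh2 curves lie above both NT curves in every decile on the left, while the classes on the right are close to each other (3610 and 4289 at 52301 peaks) and above the crossed classes.

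The 8 sh2-only regions of highest rank had mean percentiles of 87.8 to 93.7. The first, at chr4:11539474-11539831, had folds of 14.7 and 12.4 in the sh2 libraries, and the nearest NT peak lay 5.53 kb away. The second, at chr18:74452189-74452692, had folds of 13.99 and 11.5. A region at chr6:121568572-121568934 followed with 11.5 and 13.5, and there the nearest NT peak lay 86.6 kb away. In all 8 the nearest NT peak was at least 5.53 kb away. The region at chr7:20123454-20123792 had folds of 10.9 and 14.9. The region at chr13:58520514-58520880 had 13.7 and 11.1, in a stretch with no NT peak for 139 kb. In the remaining 3 the nearest NT peak was at 23.5 to 81.4 kb. Peaks at chr6:19999863-20000243 had folds of 12.9 and 11.5, and those at chr6:161521056-161521465 had 10.6 and 12.8. The region at chr1:77251952-77252354 had 11.7 and 11.5.

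In 5 of these 8 regions, none of the 8 lists of RS4;11 and RCH, the other leukemia lines of the series, had a peak. These were the regions on chromosomes 1, 7 and 18 and those from 121568572 and from 161521056 on chromosome 6. The region on chromosome 4 had a peak in all 4 RS4;11 lists and in 1 NT and 1 sh2 list of RCH. The region on chromosome 13 had one in all 4 RS4;11 lists and both RCH NT lists, and the region from 19999863 on chromosome 6 in all 4 RS4;11 lists alone.

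The 8 NT-only regions of highest rank were weaker, with mean percentiles of 72.9 to 85.2. The first, at chr15:37820591-37821220, had folds of 10.1 and 10.9 in the NT libraries, and the nearest sh2 peak lay 29.7 kb away. The region at chr14:103607044-103607503 had 8.51 and 10.3, but an sh2 peak was called 0.007 kb from its edge, so that its place in the class hangs on where the peaks end. The region at chr2:116433429-116433844 had 8.63 and 9.62. At the last of these the nearest sh2 peak was at 53.45 kb. The region at chr14:52620701-52621098 had folds of 9.93 and 8.33. That at chr2:236115667-236116076 had 9.57 and 8.58. The region at chr12:94362559-94363066 had 7.14 and 10.9, with the nearest sh2 peak at 116 kb. Both remaining regions lay on chromosome 10, at chr10:77266382-77267029 with 7.95 and 9.30 and at chr10:12285818-12286186 with 7.67 and 9.54. All 8 had a peak in some list of the other lines, and 4 of them (those on chromosomes 12 and 15, from 236115667 on chromosome 2 and from 77266382 on chromosome 10) in both lines.

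The widest changed regions were not the strongest. The 3 widest sh2-only regions measured 908, 907 and 888 bp, at mean percentiles of 33.8 to 56.6. They lay at chr1:83137059-83137966, at chr5:4348489-4349395 and at chr4:140109878-140110765. The 3 widest NT-only regions measured 942, 808 and 801 bp, and lay at chr17:6746142-6747083, at chr6:70341308-70342115 and at chr1:7022412-7023212. The last had folds of only 2.96 and 3.42, at a mean percentile of 2.05.

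Other lines had peaks at many changed regions, and the lists of the other lines took no part in choosing them. At sh2-only regions of SEM, 53.4% and 47.4% had a peak in the NT libraries of RS4;11 and 40.4% and 43.3% in its sh2 libraries. At NT-only regions these were 57.6% and 51.5%, and 32.0% and 33.2%. In RCH the shares were 23.1% and 27.4% (NT) and 14.8% and 12.7% (sh2) at sh2-only regions, and 31.6% and 34.9%, and 20.7% and 17.99%, at NT-only regions. The crossed classes lay between 42.1% and 47.4% in the sh2 libraries of RS4;11, and in each of these libraries both classes were below all 4 crossed classes, NT-only regions by more. In its NT libraries the crossed classes had 60.1% to 64.8% and 51.46% to 55.6%. There sh2-only regions were below them in both libraries. NT-only regions were below them in the first and at their lower edge in the second. In RCH the order was another one. NT-only regions were above all crossed classes in its NT libraries (29.6% to 30.3% and 31.03% to 33.3%) and within their range in its sh2 libraries (20.2% to 24.9% and 17.3% to 20.6%), while sh2-only regions were below them in all 4. No peak in any of the 8 lists was found at 34.2% of the sh2-only regions (interval 33.02 to 35.5), at 22.9% of the NT-only regions (21.1 to 24.8), at 19.01% to 21.3% of the crossed classes and at 3.31% of shared regions. The share was highest, at 44.1%, in regions with a peak in only 1 SEM library.

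Regions seen in SEM alone were spread differently over strength in the classes. In NT-only regions their share was 29.4% in the weakest quintile and 15.5% (12.2 to 19.4) in the strongest. In sh2-only regions it was 38.1% in the weakest quintile and 33.7% (31.0 to 36.5) in the strongest. Above a mean percentile of 80, a limit taken after the values were seen, 22 of 38 sh2-only regions were in SEM alone, and the single NT-only region was not.

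At NT-only regions of SEM that both RS4;11 NT libraries shared, 34.2% (31.2 to 37.3) had no peak in either RS4;11 sh2 library. At sh2-only regions this was 12.8% (11.5 to 14.1) and in the crossed classes 14.8% to 18.8%. At regions with a peak in only 1 SEM library it was 26.2%. In RCH the same share was 45.1% (40.6 to 49.6) at NT-only regions, 37.3% (34.3 to 40.4) at sh2-only regions and 31.95% to 40.3% in the crossed classes. Regions in only 1 SEM library had 40.9% there. The reverse, a peak in both sh2 libraries of the other line and in neither of its NT libraries, was not more frequent at sh2-only regions. Of those with a peak in both RS4;11 sh2 libraries, 2.21% (1.61 to 2.94) had none with NT, beside 2.81% of NT-only regions and 2.02% to 3.52% of the crossed classes. In RCH this was 9.58% (7.10 to 12.6) of sh2-only regions, beside 15.8% and 11.9% to 21.9%. The lists of RS4;11 and RCH were shorter with sh2 than with NT (a log2 ratio of -0.34 and -0.40), and differences between classes were not tested over samples.

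Changed regions stood farther from each other than shared ones. Neighbouring shared regions were a median of 31.8 kb apart, sh2-only regions 233 kb and NT-only regions 667 kb, which follows their number. The nearest shared region was at a median of 16.5 kb from NT-only regions (quartiles 4.46 and 57.2) and 17.4 kb from sh2-only regions (6.16 and 44.3), and this order turned with peaks above the pooled median fold (48.1 and 39.9 kb), in lists of 30000 peaks (38.7 and 37.7 kb) and without NT library 1 (17.4 and 14.4 kb). The crossed classes had medians of 11.02 to 15.01 kb. Within 1 kb of a shared region lay 13.97% of NT-only and 7.68% of sh2-only regions, beside 11.9% to 18.5% of the crossed classes. Beyond 100 kb lay 13.5% and 9.56%, beside 5.56% to 10.2%. A peak of the other shRNA lay within 200 bp of 131 NT-only regions (6.35%) and 222 sh2-only regions (3.78%), and within 1 kb of 412 (20.0%) and 702 (11.96%). Near chromosome ends sh2-only regions were less frequent, with 5.69% within 5 Mb of the first or last region of a chromosome against 12.6% of NT-only regions, 8.85% to 12.3% of the crossed classes and 11.2% of shared regions. A margin of 5 Mb is a larger part of a short chromosome. On chromosome 19, which is short, 1.85% of regions were sh2-only, against 10.2% on the longer chromosome 4. The ends were not compared within chromosomes.

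The nearest changed neighbour was of the same class more often than the share of that class among all changed regions. The nearest changed neighbour of an NT-only region was NT-only in 44.8% of cases (42.6 to 46.9), while NT-only regions made up 25.99% of the changed regions. The nearest neighbour of an sh2-only region was sh2-only in 81.3% of cases (80.3 to 82.3), against 74.0% of all changed regions. When the neighbour lay within 10 kb the shares were 52.6% and 88.2%, and beyond 100 kb they were 41.4% and 75.4%. A neighbour lies on the same chromosome, and the sh2-only share of changed regions ran from 30.7% to 85.2% over the chromosomes. Same-class neighbours would be in excess from that alone, and its part was not tested. In the crossed splits the share of same-class neighbours was near the share of the class itself, with 55.2% beside 54.7% and 46.98% beside 45.3% in the first split, and 57.76% beside 57.77% and 40% beside 42.2% in the second. Clusters of at least 3 regions of a class with gaps of up to 50 kb held 582 sh2-only regions (9.91%) in 176 clusters and 49 NT-only regions (2.38%) in 16 clusters. With a fixed gap, a class with more regions forms more clusters, and there were 5871 sh2-only and 2062 NT-only regions. The counts were not adjusted for this or set beside the crossed classes.

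Along the chromosomes, consecutive changed regions of 1 class were counted as runs. The 3 longest sh2-only runs held 47 regions at chr18:64227321-73190227, 46 at chr13:76591033-93849343, and 43 at chr5:86365885-95096827. Over 17.3 Mb of chromosome 13, therefore, every changed region was sh2-only. The longest NT-only runs held 16 regions at chr17:73137124-76870435, 14 at chr22:23213722-25040628, and 11 at chr1:21339481-24526080. The chromosome 22 run was the most compact of the 6, with 14 regions in 1.83 Mb. Of 1187 sh2-only runs, 170 held 10 or more regions and 372 were single regions. Of 1185 NT-only runs, 6 held 10 or more and 757 were single regions. Runs are longer in a larger class, and sh2-only regions made up 74.0% of changed regions and 85.2% of those on chromosome 13. Run lengths were not set beside those of the crossed classes.

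Direction depended on the chromosome. The sh2-only share of changed regions ran from 30.7% on chromosome 17 to 85.2% on chromosome 13. NT-only regions were the larger class on 4 of the 22 chromosomes. Chromosome 17 had 142 NT-only and 63 sh2-only regions (30.7%, interval 24.5 to 37.5), chromosome 19 had 89 and 44 (33.1%, 25.2 to 41.8), chromosome 22 had 54 and 28 (34.1%, 24.0 to 45.4), and chromosome 15 had 91 and 76 (45.5%, 37.8 to 53.4). Chromosomes 17, 19 and 22 are rich in genes. On chromosome 4, which is poor in genes, there were 100 and 499 (83.3%, 80.1 to 86.2), and on chromosome 13, also poor in genes, 35 and 201. From NT to sh2 the mean number of peaks changed by -6.45% on chromosome 17, -4.19% on chromosome 19 and -7.01% on chromosome 22, and by 29.5% on chromosome 4 and 30.4% on chromosome 13. The crossed splits also varied by chromosome. In the first, the class of NT library 2 and sh2 library 2 made up 26.1% on chromosome 22 to 56.8% on chromosome 4. Its share was 32.9% on chromosome 17, 33.3% on 15 and 33.9% on 19. In the second, NT library 2 and sh2 library 1 made up 47.0% on chromosome 10 to 73.4% on chromosome 19. What part the spread between libraries had in the chromosome order was not tested.

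With lists of equal length the spread over chromosomes was wider. The sh2-only share was then 9.62% on chromosome 22, 10.8% on chromosome 19 and 13.5% on chromosome 17, and 6 chromosomes (15, 16, 17, 19, 20 and 22) had more NT-only regions. On chromosome 4 it was 67.8% and on chromosome 13 74.1%. With lists of 10000 peaks, chromosome 19 had a share of 2.5%. As deposited, the excess of NT-only regions on chromosomes 15, 17, 19 and 22 did not hold with some single libraries left out. Without sh2 library 2 the share was 55.6% on chromosome 19, 53.6% on chromosome 22, 51.5% on chromosome 17 and 63.4% on chromosome 15, and without sh2 library 1 it was 51.9% on chromosome 15. Without other libraries it stayed below 50% on chromosomes 17, 19 and 22. With lists of equal length, leaving out a library gave at most 22.7% on chromosome 19, 24.6% on chromosome 22 and 28.7% on chromosome 17, so there the larger class did not turn.

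**Figure D3:**
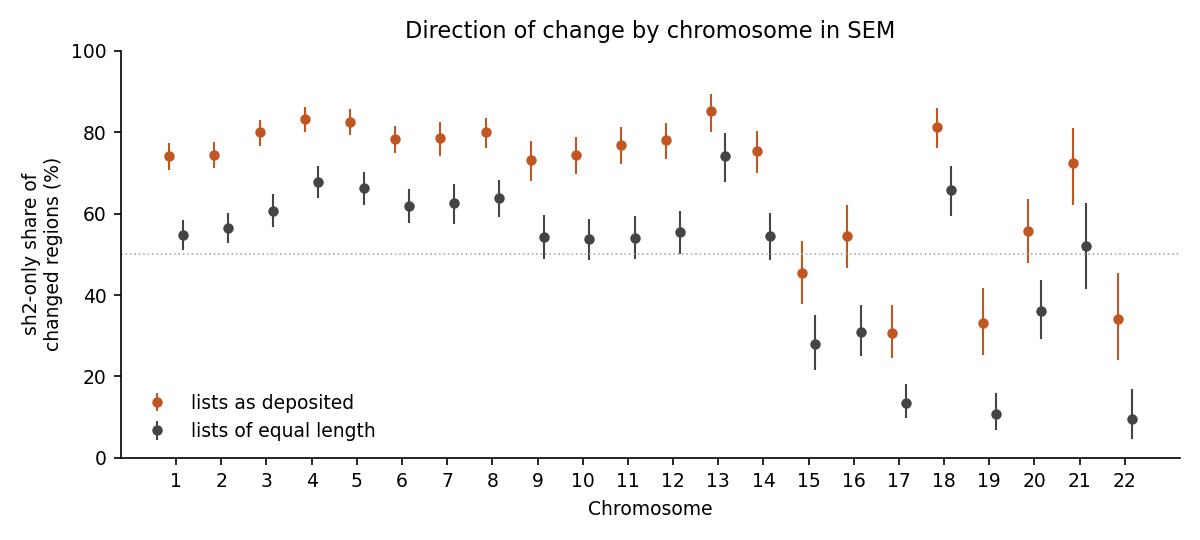
Share of sh2-only regions among the changed regions of each chromosome in SEM (percent, exact 95% binomial intervals), with the lists as deposited and with lists of equal length. Chromosomes 17, 19 and 22 are lowest under both settings (30.7% to 34.1% as deposited) and chromosome 13 is highest. The crossed splits are not drawn.

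Shared regions, which take no part in these classes, gave a second view of the same samples. They were ranked by fold within each library, so that all 4 libraries ranked the same 36884 regions. Which regions are shared still depends on the length of the lists (33894 with equal lists), and ranks were not recomputed with equal lists. Ranks of the NT libraries followed each other with a Spearman's rho of 0.849 and those of the sh2 libraries with 0.880, against 0.755 to 0.768 for the 4 pairs of NT and sh2. These are descriptions over regions that share a library and its depth. The rank shift of a region was its mean percentile in the sh2 libraries minus that in the NT libraries. Ranks are relative, so a fall in some regions comes with a rise in others. The median shift over all shared regions was -1.01 percentile points.

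In 10021 shared regions (27.2%) both sh2 libraries ranked the region lower than both NT libraries, and in 8420 (22.8%) both ranked it higher. When the libraries were paired across the shRNAs, regions without overlap made up 12.8% and 13.1% in the first crossed split and 11.8% and 12.3% in the second. Both NT to sh2 shares lay above all of these.

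The largest single shifts were 72.7 to 80.4 percentile points upwards and -75.3 to -70.3 downwards. Among regions that ranked higher with sh2, the one at chr2:133561469-133561983 stood at percentiles 10.14 and 10.12 with NT and 87.5 and 93.5 with sh2, with folds of 4.67 and 4.68 against 12.9 and 14.4. A region at chr1:171763244-171763569 went from 15.9 and 2.71 to 86.5 and 92.7. One at chr3:106147439-106147822, which had no peak in any list of RS4;11 or RCH, went from 1.88 and 29.2 to 88.7 and 87.7. In each of these, low ranks among the shared regions in both NT libraries stood against high ranks in both sh2 libraries. Among regions that ranked lower, the one at chr11:12739417-12739874 stood at 76.9 and 84.3 with NT and at 8.10 and 2.51 with sh2, with folds of 10.2 and 11.3 against 4.67 and 3.86. The region at chr14:49216748-49217260 went from 95.2 and 93.5 to 21.9 and 16.3. The region at chr15:39703682-39704270 went from 89.0 and 78.7 to 1.54 and 25.5. These 6 were picked as extremes of all shared regions outside chromosome 8.

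By chromosome, the lowest median shifts were on the chromosomes with the lowest sh2-only shares, but the directions were not the same throughout. The median shift was below 0 on 13 of the 22 chromosomes, while NT-only regions were the larger class on 4. Chromosome 1, for example, had a median shift of -2.06 (-2.59 to -1.55) and an sh2-only share of 74.1%. On chromosomes 10, 11 and 21, however, the interval included 0 and the sign turned with some library left out. The median over all shared regions was itself -1.01. On chromosome 22 their median shift was -8.97 (95% interval of the median -9.94 to -7.88, counting error only), on chromosome 17 -7.67 (-8.50 to -6.73) and on chromosome 19 -7.64 (-8.14 to -6.86). Chromosomes 16, 20 and 15 followed with -5.26, -4.17 and -4.09. The highest medians were 2.77 (1.99 to 3.48) on chromosome 4, 1.61 (1.05 to 2.45) on chromosome 8 and 1.37 (0.31 to 2.71) on chromosome 13. In the crossed splits no chromosome had a median below -0.879 or above 1.195. The mean percentile of the chromosome 19 regions was 53.7 and 53.6 in the NT libraries and 46.5 and 44.3 in the sh2 libraries, and that of the chromosome 22 regions was 50.9 and 50.1 against 41.0 and 40.8. On chromosome 4 it was 50.5 and 50.7 against 55.3 and 55.8. The groups did not overlap on any of these chromosomes.

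Counted by region, 46.1% of the shared regions of chromosome 22, 44.7% of those of chromosome 19 and 43.9% of those of chromosome 17 ranked lower in both sh2 libraries than in both NT libraries, beside 27.2% over all shared regions. Regions that ranked higher made up 6.01%, 6.08% and 8.21% there, beside 22.8% over all. On chromosome 4 the order was turned, with 18.4% lower and 34.1% higher. In the crossed splits these shares ran from 6.68% to 15.9% over the chromosomes. Leaving out 1 library at a time from the means kept the median shift between -8.00 and -6.01 on chromosome 19, -9.09 and -8.47 on chromosome 22, -8.02 and -6.76 on chromosome 17, and 2.44 and 3.22 on chromosome 4. The regions shared by all 4 libraries were kept for this and not chosen again.

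**Figure D4:**
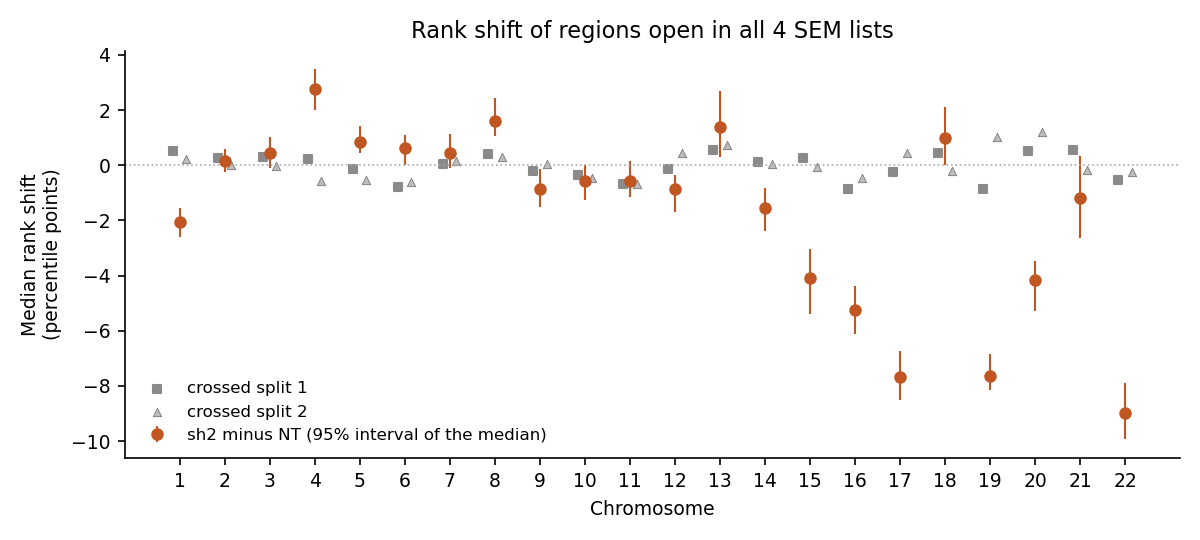
Median rank shift of shared SEM regions by chromosome, in percentile points (sh2 minus NT, with the 95% interval of the median), beside the medians of the 2 crossed splits. Chromosomes 17, 19 and 22 lie between -8.97 and -7.64, and chromosome 4 is highest at 2.77, while crossed medians stay between -0.879 and 1.195.

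Across the 22 chromosomes, the sh2-only share of changed regions and the median shift of shared regions had a Pearson's r of 0.964 and a Spearman's rho of 0.951, although the measures use different regions. Both come from the same 4 libraries, and chromosomes are not replicates. In the crossed splits the like relation had an r of 0.336 and 0.596 and a rho of 0.315 and 0.657. The median shift also fell with the density of shared regions per Mb between the first and last region of a chromosome (r of -0.802, rho of -0.652), which was 25.5 on chromosome 19, 19.5 on chromosome 22, 19.2 on chromosome 17, 10.9 on chromosome 4 and 8.39 on chromosome 13.

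Width ordered the shift within shared regions as well. The narrowest decile, 203 to 350 bp wide, had a median shift of 3.45 (2.78 to 3.94), and the widest decile, 1122 to 2927 bp, one of -5.35 (-5.68 to -5.02). Of the widest decile, 42.9% ranked lower in both sh2 libraries and 8.71% higher, while of the narrowest 15.9% ranked lower and 31.2% higher. Median shifts in the crossed splits stayed between -0.300 and 0.146 over these deciles. The level of a region made less difference, since the deciles by mean rank had median shifts of -2.42 to -0.247. Wide ATAC-seq peaks are known to lie often at promoters, but promoters were not assigned to these regions.

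The chromosome and the width each kept an order within the other. On the 6 chromosomes with the densest shared regions (6, 16, 17, 19, 20 and 22) the median shift was -1.72 in the narrowest tertile of regions, -4.26 in the middle tertile and -7.09 in the widest. On the other 16 chromosomes it was 3.55, 1.08 and -2.996. In each tertile the dense chromosomes were lower, although chromosome 6 alone had a median shift of 0.607.

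Shared regions with many others nearby shifted down too. With no other shared region within 100 kb the median shift was 0.683, and with 10 or more it was -3.95 (-4.37 to -3.49). Median widths went from 557 to 616 bp along this order. Regions open in all 8 lists of RS4;11 and RCH, which numbered 20964, had a median shift of -2.46 (-2.63 to -2.28). The 1221 shared regions with no peak in any of those lists had a median shift of 5.49 (4.20 to 6.72), and 39.7% of them ranked higher in both sh2 libraries against 17.4% lower. Those seen in SEM alone were narrower, at a median of 462 bp against 746 bp. On the 16 less dense chromosomes the shift of SEM-only regions was 7.85 (6.005 to 9.55), and on the 6 densest it was 0.989 (-0.364 to 2.32).

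**Figure D5:**
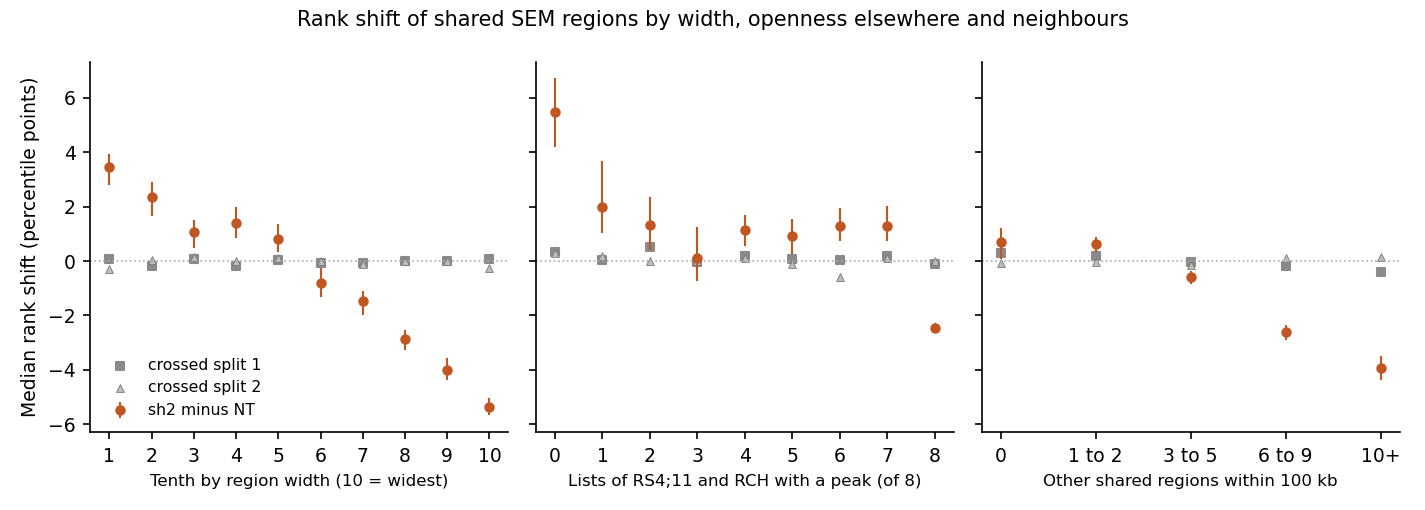
Median rank shift of shared SEM regions (percentile points, sh2 minus NT with the 95% interval of the median, and both crossed splits) by decile of region width, by the number of RS4;11 and RCH lists with a peak, and by the number of other shared regions within 100 kb. The shift falls from 3.45 in the narrowest to -5.35 in the widest decile, and from 5.49 in regions with no peak in the other lines to -2.46 in regions open in all 8 of their lists.

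Peaks at shared regions were slightly wider with sh2 although peaks as a whole were narrower. The bases covered per shared region averaged 555 and 549.6 bp in the NT libraries and 566 and 560.4 bp in the sh2 libraries, without overlap of the groups. Both sh2 libraries covered more bases than both NT libraries in 9421 shared regions (25.5%) and fewer in 6465 (17.5%), while in the crossed splits each side covered more in 13.1% to 15.6%.

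On the chromosomes with the largest shifts, the direction in SEM was opposite to that in RS4;11 and RCH. The median shift of shared regions on chromosome 19 was -7.64 in SEM, 6.78 in RS4;11 and 15.3 in RCH. On chromosome 22 it was -8.97, 4.17 and 12.02, on chromosome 17 -7.67, 5.78 and 9.62, and on chromosome 4 2.77, -0.696 and -2.66, in the same order of lines. The lines share no samples, each had 1 sample per shRNA, and no test was made of how the lines differ.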

How the data were processed

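ATAC-seq peak lists of SEM NT and SEM sh2 were used, with those of RS4;11 and RCH for comparison. Bowtie2, MACS2 and hg19 are named in the submitters' processing notes. Their versions and settings, duplicate removal, the transposase offset and read totals were not given in the sources used here. Every deposited list holds positions and, in column 5, a value read from the values themselves as a fold enrichment, a ratio to the library's background that is not normalized between lists. In the SEM lists 9.14% to 12.9% of the values were whole multiples of 1 step (tolerance 0.0002), from which the background level was taken.

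Peaks on chromosomes 1 to 22 were merged where they shared at least 1 bp, and bedtools 2.31.1 gave the same 78012 regions. Libraries are numbered by their file numbers, which pair nothing. Shares have exact binomial (Clopper-Pearson) 95% intervals and medians have exact order-statistic intervals, which treat regions as independent and cover counting error only. Named regions are the 8 strongest and 3 widest of each class, the 3 longest runs and the 3 largest shifts each way. Chromosome 8 was left out of all named regions. The comparison, classes and alternatives were chosen with earlier results of these data known. The steps were tested on simulated lists with planted classes. No test across samples was made. Positions were not matched to genes or sequence, since no hg19 annotation was used. Scripts ran in Python 3.11.15 with pandas 2.3.3, numpy 2.4.6, matplotlib 3.10.9 and scipy 1.17.1.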

Additional observations from a re-analysis of the deposited data

Results flagged for a closer look

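SEM had more peaks with sh2 than with NT while RS4;11 and RCH had fewer, with both sh2 libraries beyond both NT libraries in each. On a log2 scale, the ratio of peak numbers (sh2 to NT) came to 0.21 in SEM, -0.34 in RS4;11 and -0.40 in RCH on chromosomes 1 to 22, and the difference was not tested.

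The mean rank of the regions shared by the 4 libraries of a line also moved in opposite directions, without overlap of NT and sh2 libraries in any of the 3 lines, on 15 of 22 chromosomes. In 7 of them SEM regions ranked lower with sh2, with median shifts in SEM of -2.06 on chromosome 1, -4.09 on 15, -5.26 on 16, -7.67 on 17, -7.64 on 19, -4.17 on 20 and -8.97 on 22. Among the 8 where SEM regions ranked higher, median shifts were 0.165 on chromosome 2, 0.440 on 3, 2.77 on 4, 0.850 on 5, 0.438 on 7, 1.61 on 8, 1.37 on 13 and 0.971 on 18. The interval of the SEM median included 0 on chromosomes 2 (-0.260 to 0.594), 3 (-0.106 to 1.03) and 7 (-0.110 to 1.12). Without sh2 library 2 the SEM median on chromosome 2 was -0.153. On chromosomes 2, 3, 5, 7, 8 and 13 the median shift of RS4;11 was above 0 as well (0.177 to 0.631), so that there only its mean ranks were opposite. These differences between lines were not tested.

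Chromosome X was outside the comparison. It held 294 sh2-only and 39 NT-only regions among 2586, with 88.3% of the changed regions sh2-only (exact 95% binomial interval 84.3 to 91.5). The largest crossed class there held 43 regions, fewer than the sh2-only class and more than the NT-only class.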

How the results depend on the processing

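Most values moved with the length of the lists. With equal lists NT-only regions numbered 3610 and the sh2-only share was 54.3%, 10.8% on chromosome 19 and 67.8% on chromosome 4. Lists of 10000, 20000, 30000 and 40000 peaks gave 1120, 1905, 2477 and 3007 sh2-only regions, shares of 53.7%, 53.6%, 52.4% and 52.0%, shares on chromosome 19 of 2.5%, 3.26%, 7.84% and 10.9%, and on chromosome 4 of 72.9%, 75.4%, 67.8% and 67.25%. At 10000 peaks NT-only regions numbered 967. With peaks above the pooled median fold (6.37), NT-only regions numbered 1029 and sh2-only regions 3895, a share of 79.1% (87.3% on chromosome 4). That limit keeps a larger part of the sh2 lists. The share was 72.7% with 50% of the region covered and 75.8% with no peak of the other condition within 1 kb. With chromosome X added the share was 74.6%. Leaving out 1 library gave 3400 to 6069 NT-only regions, 8903 to 12599 sh2-only regions, shares of 59.5% to 78.7%, of 26.9% to 55.6% on chromosome 19 and of 66.7% to 85.6% on chromosome 4, and a shift on chromosome 19 of -8.00 to -6.01, an alternative chosen after seeing the data. For that shift the regions shared by all 4 libraries were kept. That shift was -7.47 with mean folds and -7.86 over regions with 1 peak in each list. With equal lists the nearest shared region was at 10.6 kb (NT-only) and 21.9 kb (sh2-only). Causes were not tested. No paired analysis was possible because the labels give no library numbers. Read depth is unknown, so weak peaks may be missed in any list.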
